A study of Mus musculus with 8 samples.

Results

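The genes described here encode the proteasome, its regulators and its assembly factors. They were taken from the table by symbol, as every row that starts with Psm, a letter from a to g and a digit, which gave 50 genes of 24344 distinct symbols. Of these, 44 reached 1 FPKM (fragments per kilobase of transcript, scaled to the mapped fragments of the library) in at least 4 libraries and were tested, among 12377 genes tested in all. The RNA came from homogenised occipital cortex of C57BL/6J mice at postnatal day 35, with 4 libraries from mice fasted for 48 h and 4 from mice fed ad libitum. No other treatment, transgene or allele is named for either group, and all 8 libraries share strain, age and tissue. The labels do not say whether each library is 1 mouse or a pool, so p-values measure the spread between these libraries.

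The proteasome is the protease that breaks down ubiquitin-tagged proteins in the cytosol and nucleus of every cell. Its 20S core is a barrel of alpha and beta rings, and peptide bonds are cut inside the beta rings by Psmb5, Psmb6 and Psmb7. A 19S particle on the end of the barrel recognises, unfolds and feeds in substrates: its base holds the ATPases Psmc1 to Psmc6, and its lid holds the deubiquitinase Psmd14. Immune cells and cells exposed to interferon replace the cutting subunits by Psmb8, Psmb9 and Psmb10, which gives the immunoproteasome. When proteasome activity falls short, the transcription factor encoded by Nfe2l1 raises transcription of the subunit genes together.

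Few proteasome genes differed between fasted and fed cortex in the fit with group as its only term. More were called once libraries were scaled or paired, as given below. Of 44 tested members 1 was higher in fasted cortex, the nuclear activator gene Psme4, and 1 was lower, the assembly chaperone gene Psmg2 (limma, Benjamini-Hochberg adjusted p under 0.05 over all genes tested). That is 4.55% of the members, where 25.8% of all tested genes were called, 9.56% as higher and 16.3% as lower. In that fit 0 of the 31 subunits of the 20S core and 19S particle were called, and 25 of their estimates were above 0. With the replicate number as a block, which treats same-numbered libraries as pairs, 6 of the 31 were called higher and 0 lower. The counts were also 6 and 0 after median-ratio scaling, and 10 and 0 with both. The 95% intervals of all 31 lay between -0.35 and 0.39 on the scale of log2(FPKM + 1), inside a 1.5-fold change either way. All log2 changes here are fasted minus ad libitum on that scale, which understates the change of genes at low levels. The counts of calls depended on how libraries were scaled and paired. After median-ratio scaling 10 of 44 members were called, 8 higher and 2 lower, against a background of 29.9% (14.2% higher and 15.6% lower). Over all genes the balance of 1183 higher and 2015 lower became 1762 and 1935. The block called 11 of 44 members, 7 higher and 4 lower, against 36.4% of genes (14.3% higher and 22.1% lower). Scaling and block together, tried after seeing the data, called 17 of 44 members, 14 higher and 3 lower, against 39.0% of genes (19.3% and 19.7%).

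A few facts of the libraries bear on these values. Depth, read from the steps in which low values fall, was about 17100000 to 21300000 fragments per library. Y-linked and X-inactivation transcripts part the odd replicate numbers from the even ones in both groups, and ad libitum replicate 3 held both kinds (5.67 FPKM of Ddx3y and 32.2 of Xist). Without that library 1 member was higher, Psme4, and 0 were lower, where over all genes 841 were higher and 1406 lower. When odd against even number was added as a term, 1 was higher and 2 were lower, Psmg2 and Psmd10, where over all genes 1154 were higher and 1989 lower. All 10 markers of excitatory neurons passed the filter, with a summed level of 1710 to 2140 FPKM in fed and 1750 to 2020 in fasted libraries.

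The promoters of the members are shown for 4 genes, since the factor encoded by Nfe2l1 binds the antioxidant response element and NF-Y binds the CCAAT box. Capitals mark matches to TGACNNNGC or CCAAT on either strand. None of the printed promoters holds both motifs. Psme4 is shown as the member that rose, Psmb5 and Psmb6 as cutting subunits with the response element near their start, and Psmd10 as a chaperone gene with 3 CCAAT boxes. Sequences are RefSeq promoters on GRCm38.p6, 5′ to 3′ on the gene's strand, at chr11:30771525-30771725 (plus), chr14:54618023-54618245 (minus), chr11:70525107-70525356 (plus) and chrX:140956729-140956961 (minus), with annotated exons left out.
Psme4: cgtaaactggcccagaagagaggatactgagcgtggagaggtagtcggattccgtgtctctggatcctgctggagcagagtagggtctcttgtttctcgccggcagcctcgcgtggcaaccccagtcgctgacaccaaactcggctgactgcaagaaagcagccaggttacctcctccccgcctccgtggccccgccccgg
Psmb5: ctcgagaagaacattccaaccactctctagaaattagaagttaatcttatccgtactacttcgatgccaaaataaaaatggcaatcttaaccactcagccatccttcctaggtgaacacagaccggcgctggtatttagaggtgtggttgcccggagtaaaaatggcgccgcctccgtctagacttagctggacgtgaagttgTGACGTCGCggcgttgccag
Psmb6: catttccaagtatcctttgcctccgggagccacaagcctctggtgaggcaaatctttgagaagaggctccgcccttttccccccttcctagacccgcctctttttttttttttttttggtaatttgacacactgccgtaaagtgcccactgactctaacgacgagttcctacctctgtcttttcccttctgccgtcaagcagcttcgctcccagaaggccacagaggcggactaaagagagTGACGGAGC
Psmd10: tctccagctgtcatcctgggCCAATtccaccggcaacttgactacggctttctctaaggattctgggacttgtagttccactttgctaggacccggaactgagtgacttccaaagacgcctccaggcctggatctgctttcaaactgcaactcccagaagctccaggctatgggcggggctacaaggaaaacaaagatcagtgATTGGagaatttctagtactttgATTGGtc
The element TGACNNNGC began 47 bases before the start of Psmb5 and 9 before that of Psmb6. Over the 250 bases before the start, 5 of 42 member genes with an entry held it (11.9%), beside 11.5% of 27025 genes with an entry. CCAAT was found for 15 of 42 members (35.7%) and for 37.5% of all. The members' promoters thus held either motif about as often as promoters in general. No match says only that these letters are not in the window.

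Levels, which per kilobase can be set side by side between genes, differed between the groups of members. The 31 subunits of core and 19S particle had mean levels from 22.7 FPKM (Psmd6) to 65.9 (Psmc1), and single libraries spanned 17.4 to 74.0. The 7 assembly chaperones lay lower, at means of 3.21 FPKM (Psmg3) to 13.1 (Psmd5). Among the immunoproteasome genes Psmb10 stood at 9.79 FPKM over all libraries, and Psmb8 and Psmb9 under 1 FPKM at 0.886 and 0.499. Psma8, the alpha subunit of the testis, and Psmb11, the beta subunit of the thymus, had means of 0.115 and 0.0304 FPKM.

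**Figure D1:**
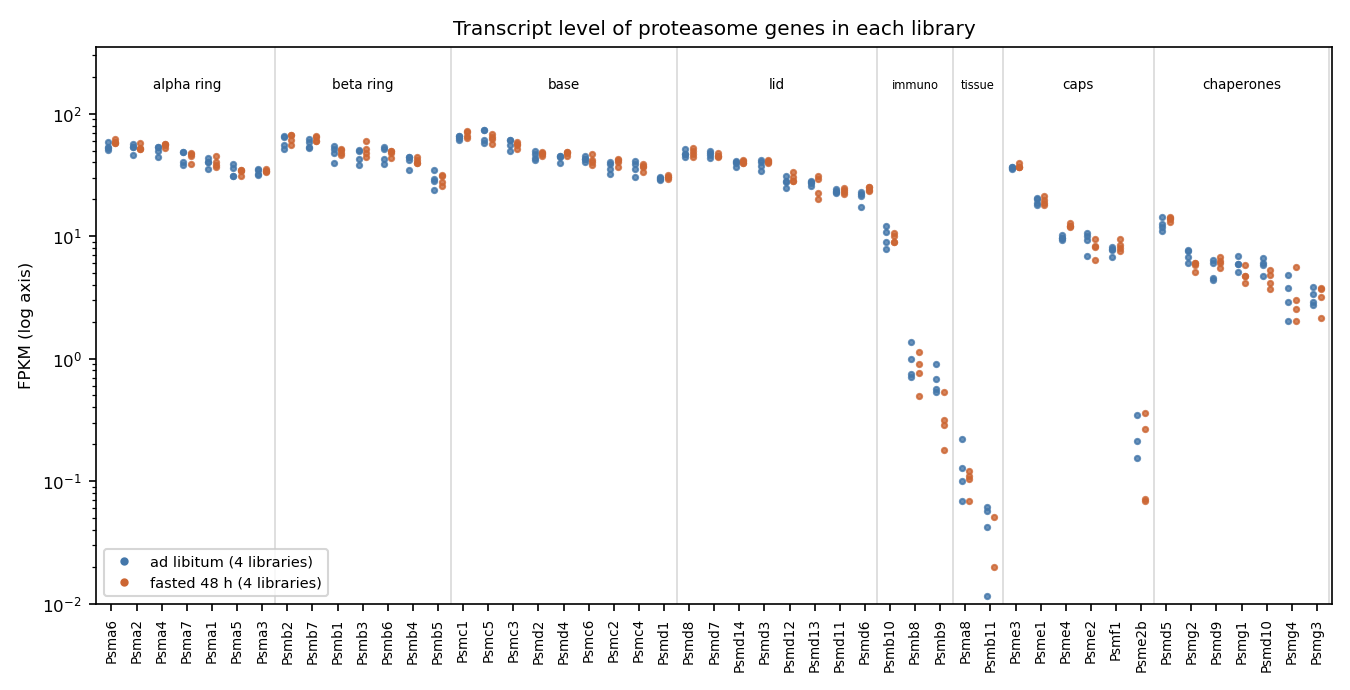
Level of each proteasome gene in FPKM on a log axis, with 1 point per library, blue for ad libitum and orange for fasted, by member group (immuno, immunoproteasome; tissue, tissue-restricted core; caps, alternative caps and inhibitor). The 31 subunits of core, base and lid lie between 17.4 and 74.0 FPKM, and Psmb8, Psmb9, Psma8, Psmb11 and Psme2b lie far below; 3 values under 0.01 FPKM, of Psmb11 and Psme2b, are not drawn.

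The alpha ring forms the outer rings and the gate of the core. Its 7 genes summed to 329, 321, 302 and 279 FPKM in ad libitum replicates 1 to 4 and to 336, 317, 324 and 304 in fasted replicates 1 to 4. The ranges overlap, and replicate 4 was lowest in each group. None of the 7 was called. Psma6 was at 53.1, 58.5, 50.9 and 52.5 FPKM in fed and 62.6, 57.6, 59.0 and 58.1 in fasted cortex, a log2 change of 0.14 (SE 0.0568, limma adjusted p = 0.0897), with fed replicate 2 inside the fasted range. Psma4 was at 53.1, 49.4, 53.9 and 44.3 FPKM in fed and 56.7, 55.3, 57.0 and 52.4 in fasted libraries, a log2 change of 0.14 (limma adjusted p = 0.136). Both passed the test after median-ratio scaling (limma adjusted p = 0.0158 for Psma6 and 0.0290 for Psma4) and with the replicate block (0.0450 and 0.0238). The other 5 lay between -0.03 (Psma5) and 0.04 (Psma3).

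The beta ring carries the cutting sites. Its 7 constitutive genes summed to 326 ± 38.2 FPKM in fed and 343 ± 23.6 in fasted cortex (SD, n = 4 each). Psmb5, the chymotrypsin-like subunit, was at 29.5, 34.7, 28 and 23.8 FPKM in fed and 31.5, 31.2, 27.5 and 25.9 in fasted libraries. Its log2 change was 0.01, with a 95% interval from -0.22 to 0.23 (limma adjusted p = 0.962). Psmb6, the caspase-like subunit, was at 53.2, 51.3, 43.0 and 39.1 and at 49.6, 49.5, 47.6 and 43.7 FPKM, a log2 change of 0.04 (interval -0.16 to 0.24, limma adjusted p = 0.788). The fed and fasted values of both genes are interleaved, and the lowest value of each is that of ad libitum replicate 4. Psmb7, the trypsin-like subunit, was at 58.9, 62.1, 53.8 and 52.3 and at 66.3, 64.9, 59.4 and 59.3 FPKM, a log2 change of 0.14 (limma adjusted p = 0.154), with overlap through ad libitum replicate 2. Psmb3, a structural subunit, was at 50.7, 49.1, 42.6 and 38.3 and at 59.8, 51.3, 47.9 and 44.3 FPKM, higher in the fasted library of each replicate number, a log2 change of 0.17 (limma adjusted p = 0.259). With the replicate block both passed (limma adjusted p = 0.0223 and 0.0127), and Psmb7 also did after median-ratio scaling (0.0282). Psmb1, Psmb2 and Psmb4 lay between 0.02 and 0.09.

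The base unfolds substrates and opens the gate. Its 6 ATPases and 3 further subunits summed to 442, 449, 410 and 384 FPKM in fed and 448, 431, 435 and 403 in fasted libraries, and 0 of 9 were called. The ATPase gene Psmc2 was at 38.9, 40.1, 35.4 and 32.4 FPKM in fed and 42.5, 41.7, 40.3 and 36.5 in fasted libraries, a log2 change of 0.13 (limma adjusted p = 0.210). Psmd4, a receptor for ubiquitin chains, was at 45.1, 45.5, 44.4 and 39.7 and at 48.9, 48.3, 44.9 and 47.5 FPKM, a log2 change of 0.12 (limma adjusted p = 0.155). Both overlap between groups, and in both ad libitum replicate 4 is the lowest library. After median-ratio scaling Psmc2 and Psmd4 passed the test (limma adjusted p = 0.0453 and 0.0291), and Psmc2 also with the replicate block (0.0279). The ATPase gene Psmc5 had the lowest estimate of the base, -0.08 (interval -0.27 to 0.11, limma adjusted p = 0.530).

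The lid removes ubiquitin from substrates before they enter. Its 8 genes summed to 271 ± 16.6 FPKM in fed and 278 ± 13.7 in fasted cortex (SD, n = 4 each), and 0 of 8 were called. Psmd6, a structural subunit encoded on chromosome 14 (14112174 to 14120984, GRCm38), was the only member of core, base or lid whose groups did not overlap. Over all tested genes the groups did not overlap in 27.6%. Psmd6 was at 21.9, 23.1, 21.4 and 17.4 FPKM in fed and 25.2, 24.0, 25.2 and 23.3 in fasted libraries. Its log2 change of 0.22 (SE 0.0773) gave limma adjusted p = 0.0581, and 0.00938 after median-ratio scaling and 0.0126 with the replicate block. Psmd12, a structural subunit, was at 28.3, 30.7, 27.5 and 24.9 and at 33.2, 28.2, 30.6 and 28.2 FPKM, with overlap, a log2 change of 0.11 (limma adjusted p = 0.306). Psmd14, the deubiquitinase, was at 39.4 ± 2.03 and 40.4 ± 1.02 FPKM, a log2 change of 0.04. Psmd13 had the lowest estimate, -0.10 (limma adjusted p = 0.564). Its fasted values were 31.1, 29.0, 22.7 and 20 FPKM, wider than its fed range of 25.6 to 28.1.

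**Figure D2:**
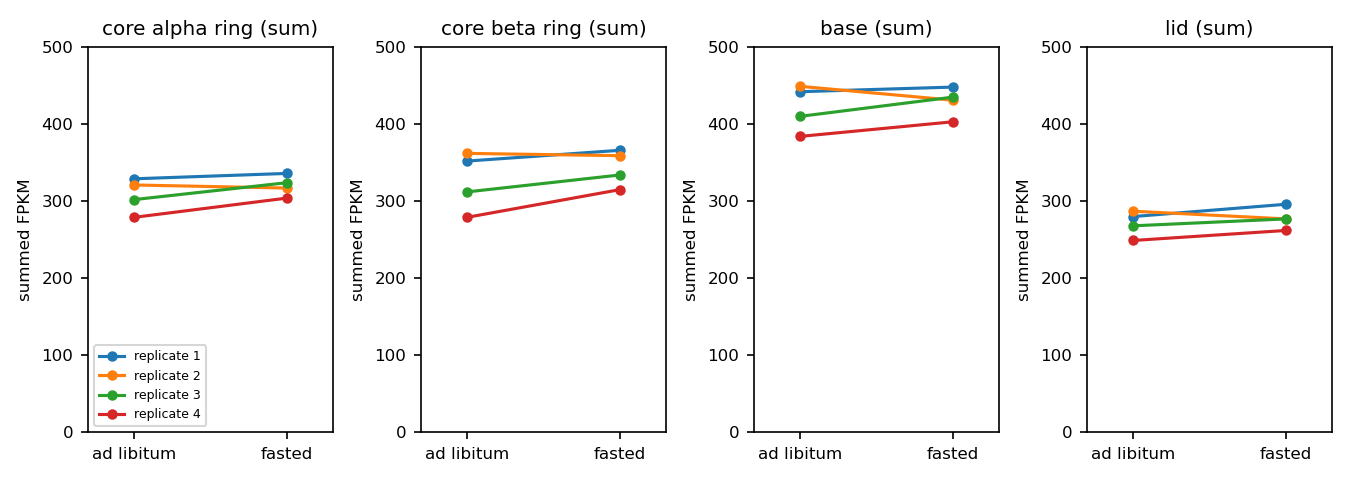
Summed FPKM of the alpha ring, beta ring, base and lid in each library, with lines that join libraries of the same replicate number. Replicate 4 is lowest in each group for all 4 sums, and the fed and fasted ranges overlap.

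The groups of subunits had like estimates. The median log2 change was 0.03 in the alpha ring, 0.04 in the beta ring, 0.05 in the base and 0.03 in the lid, beside -0.02 over all tested genes. Without ad libitum replicate 4 the medians were -0.033 in the alpha ring, -0.041 in the beta ring, 0.014 in the base and -0.003 in the lid, beside -0.046 over all genes. After median-ratio scaling the summed level of each of these groups was higher in the fasted library of every replicate number. The sum of the core over the sum of the 19S particle was 0.942, 0.928, 0.906 and 0.880 in fed and 0.944, 0.954, 0.924 and 0.930 in fasted libraries. Same-numbered libraries shared a pattern: ad libitum replicate 4 was the lowest fed library for 28 of the 31 subunits and fasted replicate 4 the lowest fasted one for 25. Over all genes, replicate 4 also had the lowest median-ratio size factor in both groups (0.9626 and 0.9662, beside up to 1.049 in ad libitum replicate 2). Its part in the members' values was not tested beyond the scaled fits given above.

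**Figure D3:**
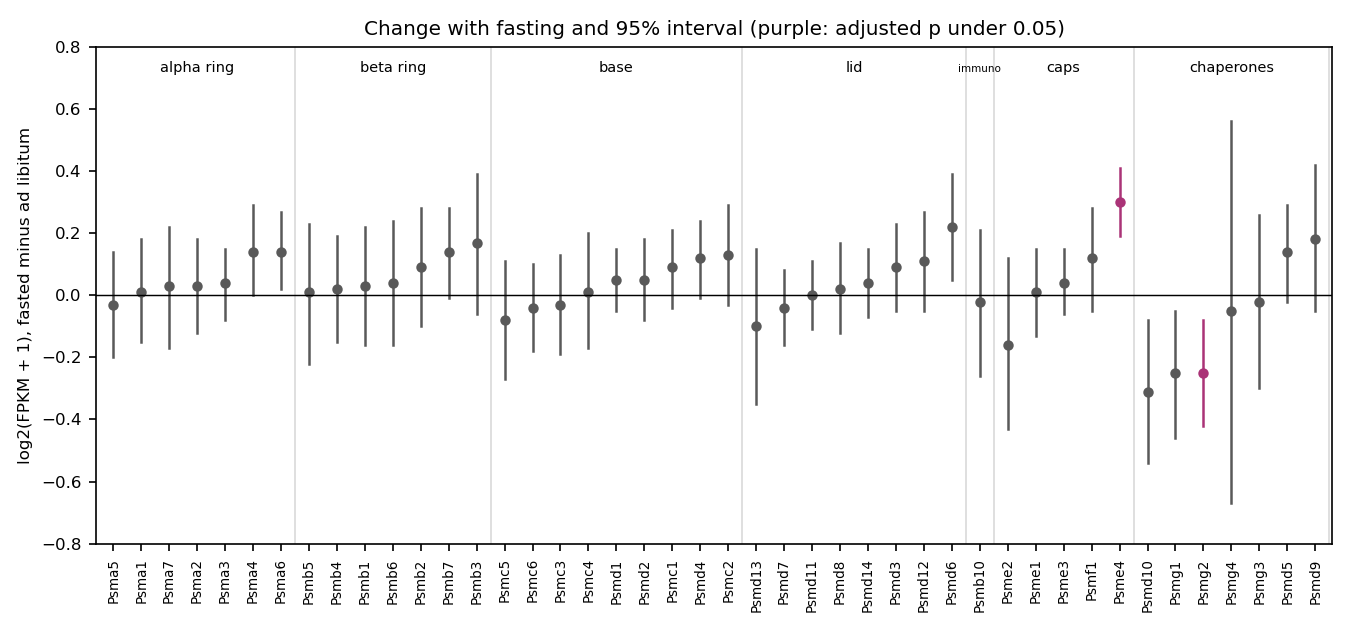
Difference in log2(FPKM + 1), fasted minus ad libitum, for the 44 tested members by group, with 95% intervals of the limma fit, not adjusted for the number of genes; purple marks adjusted p under 0.05. Psme4 at 0.30 and Psmg2 at -0.25 are marked, and the core, base and lid estimates lie between -0.10 and 0.22.

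Alternative caps take the place of the 19S particle on the core. Of 5 tested genes in this group 1 rose and 0 fell, where 9.56% of all tested genes were called higher and 16.3% lower. Psme4 (chromosome 11, 30771726 to 30880361, GRCm38) encodes PA200, a nuclear cap known for its part in the breakdown of acetylated core histones. It was at 9.36, 9.57, 9.73 and 10.2 FPKM in ad libitum and 12.1, 11.9, 12 and 12.7 in fasted libraries. Every fasted library was above every fed one, which held for 3 of the 44 members (6.82%) in either direction and for 27.6% of all tested genes. The log2 change was 0.30 (SE 0.0490, 95% interval 0.19 to 0.41), with limma adjusted p = 0.00164, and mean FPKM was 25.4% higher. The call held in all 17 alternative fits, with adjusted p between 7.17e-04 and 0.0074. Unlike the core and 19S subunits, Psme4 was highest in replicate 4 of each group.

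The genes of the PA28 caps did not pass the test. Psme3, which encodes the nuclear PA28 gamma, was at 36.2 ± 0.818 FPKM in fed and 37.4 ± 1.49 in fasted cortex (SD, n = 4 each), a log2 change of 0.04 (interval -0.06 to 0.15, limma adjusted p = 0.535). Psme1 and Psme2 encode the interferon-inducible PA28 alpha and beta. Psme1 differed by 0.01 (limma adjusted p = 0.953). Psme2 was at 10, 10.6, 9.28 and 6.92 FPKM in fed and 8.36, 9.49, 8.18 and 6.41 in fasted libraries, a log2 change of -0.16 (limma adjusted p = 0.378, and 0.0311 with the replicate block). Within each replicate number the fasted library was lower. Psme2b, a near-copy of Psme2 that could take some of its reads, stood at 0 to 0.361 FPKM and did not pass the filter. Psmf1, which encodes the inhibitor PI31, was at 7.64 ± 0.606 and 8.40 ± 0.840 FPKM, a log2 change of 0.12 (limma adjusted p = 0.264).

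Assembly chaperones bring the rings and the base together and leave the finished particle. Of 7 tested genes 1 fell and 0 rose, where 16.3% of all tested genes were called lower. Psmg2, which with Psmg1 forms a chaperone pair that assembles the alpha ring, was at 7.53, 7.72, 6.79 and 6.07 FPKM in fed and 6.03, 5.80, 5.14 and 5.98 in fasted libraries. The groups stand apart by a narrow margin, between ad libitum replicate 4 and fasted replicate 1. The log2 change was -0.25 (SE 0.0765), with limma adjusted p = 0.0330 and mean FPKM 5.74 against 7.03. The call ended in 6 of 17 alternative fits, with no filter on low values (adjusted p = 0.0549) and when fed library 1, 2 or 3 or fasted library 2 or 3 was omitted (0.0622 to 0.0967).

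Among the chaperones Psmg1 and Psmd10, chosen for mention after their values were seen, had estimates like that of Psmg2. Psmg1 was at 5.93, 6.89, 5.97 and 5.07 FPKM in fed and 4.15, 5.77, 4.73 and 4.73 in fasted libraries, a log2 change of -0.25 (limma adjusted p = 0.0710). Psmd10, which encodes gankyrin, a chaperone of the base, was at 6.61, 6.01, 5.79 and 4.70 and at 4.85, 4.13, 5.26 and 3.70 FPKM, a log2 change of -0.31 (limma adjusted p = 0.0524). In both genes the groups overlap, through the low value of ad libitum replicate 4. With the replicate block both passed (limma adjusted p = 0.0134 for Psmg1 and 0.00591 for Psmd10), and Psmd10 also did after median-ratio scaling (0.0379). The other base chaperones had estimates of the opposite sign that did not pass, 0.14 for Psmd5 and 0.18 for Psmd9 (limma adjusted p = 0.175 and 0.228). Psmd5 passed as higher after median-ratio scaling (limma adjusted p = 0.0494), without ad libitum replicate 2 (0.0482) and with scaling and block together (0.0146), and Psmd9 only with scaling and block together (0.0277), among the fits run. Psmg3 and Psmg4, the other alpha ring pair, were at -0.02 and -0.05. The interval of Psmg4 ran from -0.67 to 0.56, the widest of all members, and its libraries spanned 2.01 to 5.57 FPKM.

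**Figure D4:**
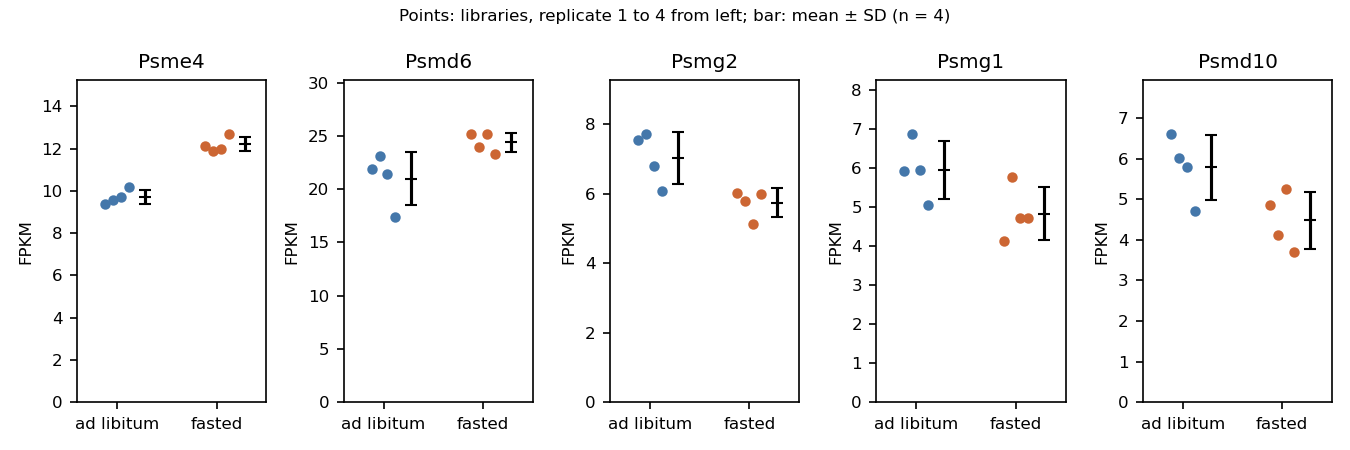
FPKM of Psme4, Psmd6, Psmg2, Psmg1 and Psmd10 in each library, with mean ± SD (n = 4) beside the points. All 4 fasted values lie above the fed ones for Psme4 and Psmd6 and below them for Psmg2, while the groups overlap for Psmg1 and Psmd10.

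The immunoproteasome genes stood below the constitutive genes they replace. Psmb10 was at 12, 8.93, 10.8 and 7.91 FPKM in fed and 10.7, 10, 8.94 and 8.97 in fasted libraries, a log2 change of -0.02 (interval -0.26 to 0.21, limma adjusted p = 0.893). Psmb8 and Psmb9 lie in the major histocompatibility region of chromosome 17, with Tap1 between them (34197721 to 34201454 and 34181987 to 34187764, GRCm38) and did not pass the filter. Psmb8 was at 0.748, 1.37, 0.984 and 0.702 FPKM in fed and 0.760, 1.13, 0.493 and 0.904 in fasted libraries, with the groups interleaved. Psmb9 was at 0.898, 0.530, 0.683 and 0.569 in fed and 0.531, 0.179, 0.288 and 0.316 in fasted libraries, where fasted replicate 1 just reaches the lowest fed value. On the longest annotated transcript, 1352 bases, the values of Psmb9 come to about 4.1 to 23 fragments per library, so its counting error is large.

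Each immunoproteasome subunit was set against the constitutive subunit whose place it takes, as a ratio of FPKM within a library, which does not depend on library scaling. Psmb8 stood at 3.23% ± 0.616 of Psmb5 in fed and 2.83% ± 0.877 in fasted cortex (SD, n = 4 each; exact two-sided permutation test on the log2 ratio, p = 0.4286). Psmb10 stood at 17.5% ± 3.2 of Psmb7 in fed and 15.4% ± 0.489 in fasted cortex (exact permutation p = 0.4). Psmb9 stood at 1.69, 1.03, 1.59 and 1.45% of Psmb6 in fed and 1.07, 0.361, 0.604 and 0.722% in fasted libraries. Its log2 ratio was 1.15 lower (a difference of -1.15; exact two-sided permutation p = 0.0571, adjusted over the 3 ratios 0.1714), where 0.0286 is the smallest p that 4 against 4 can give. The fasted library was lower in 4 of 4 replicate numbers (exact sign-flip p = 0.125, the smallest that 4 pairs allow), and leaving out 1 library at a time gave differences from -1.39 (without fasted replicate 1, exact permutation p = 0.0286) to -0.87 (without fasted replicate 2, p = 0.0857). The exact permutation p was also 0.0857 without ad libitum replicate 1, 3 or 4. In a fit of all genes with no filter on low values Psmb9 was called lower, with a difference of -0.33 in log2(FPKM + 1) (limma adjusted p = 0.0368). In that fit 16.4% of genes were called, 6.36% as higher and 10.1% as lower. Psmb8 was not called in it, with a difference of -0.1 (limma adjusted p = 0.667).

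Immunoproteasome transcripts are known from microglia, and the microglial markers were lower in the fasted libraries. Of 14 tested markers 7 were called lower and 0 higher, where 16.3% of all tested genes were called lower and 9.56% higher. Their summed level was 150 to 209 FPKM in fed and 129 to 148 in fasted libraries, with none of the 14 at 0 throughout. Of 10 excitatory neuron markers 5 were called lower and 1 higher, and of 10 astrocyte markers 3 and 1. The counts were 3 and 0 of 10 for endothelium, 2 and 1 of 10 for oligodendrocytes, and 0 of 10 for inhibitory neurons. The part of microglia in the level of Psmb9 was not tested. In bulk tissue fewer cells of a type and less RNA per cell cannot be told apart. Tap1, the peptide transporter gene next to Psmb9, was at 0.341 ± 0.0354 and 0.382 ± 0.0421 FPKM (SD, n = 4 each) and did not pass the filter. With no filter on low values Tap1 was not called, with a log2 change of 0.04 (limma adjusted p = 0.52).

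**Figure D5:**
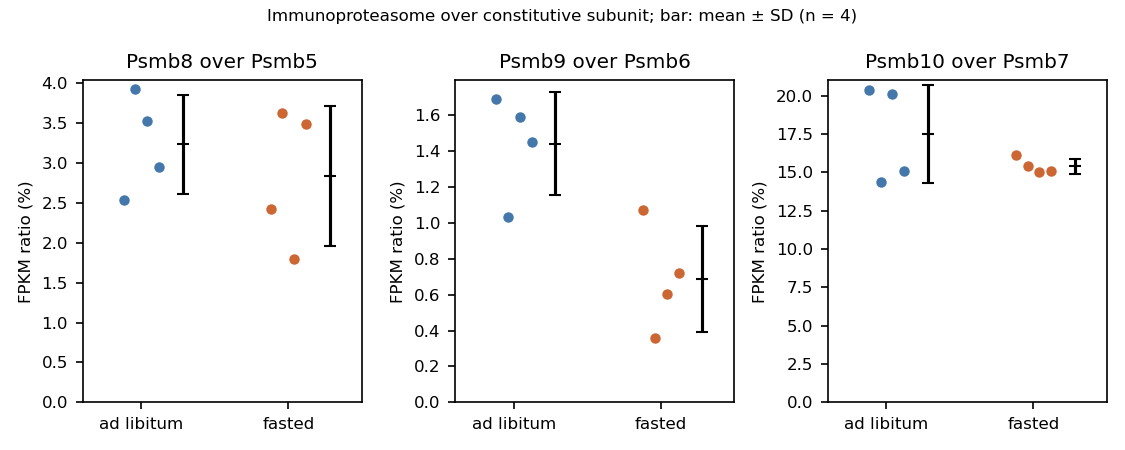
FPKM of Psmb8, Psmb9 and Psmb10 as a percentage of Psmb5, Psmb6 and Psmb7 in the same library, with mean ± SD (n = 4) beside the points and axes from 0. The fed and fasted values overlap in all 3 ratios, in Psmb9 through ad libitum replicate 2 at 1.03% and fasted replicate 1 at 1.07%.

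Genes around the proteasome were taken from lists by function. Of 17 proteasome-bound factors without a Psm symbol 1 fell and 0 rose, where 16.3% of all tested genes were called lower and 9.56% higher. After median-ratio scaling 1 was lower and 2 were higher, beside 15.6% and 14.2% of all genes. With scaling and block together 1 was lower and 5 were higher, beside 19.7% and 19.3%. Ubqln4, a shuttle that carries ubiquitinated proteins to the proteasome, was at 38.4, 37.6, 35.6 and 31.3 FPKM in fed and 30.0, 30.1, 26.4 and 26.7 in fasted libraries, with no overlap, a log2 change of -0.32 (limma adjusted p = 0.00849). Its relatives Ubqln1 and Ubqln2 differed by 0.03 and 0.00 and did not pass. Zfand2a, which encodes a stress-induced partner of the proteasome, was at 17.5, 18.4, 17.5 and 15.8 FPKM in fed and 20.8, 19.1, 19.1 and 19.1 in fasted libraries. Its groups do not overlap, and its log2 change was 0.16 (limma adjusted p = 0.0540, 0.0074 after median-ratio scaling and 0.0241 with the replicate block). Zfand2a was chosen for mention after its values were seen.

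Of 7 genes that act in transcription of proteasome genes 1 rose and 1 fell. The shares over all tested genes were 9.56% higher and 16.3% lower. Nfe2l1 itself was at 64.7 ± 3.56 FPKM in fed and 64.3 ± 2.98 in fasted cortex (SD, n = 4 each), a log2 change of -0.01 (limma adjusted p = 0.933). Ddi2, the protease that cuts the Nfe2l1 product into its active form, was at 6.00, 7.28, 7.77 and 8.21 FPKM in fed and 8.93, 8.58, 8.55 and 10.7 in fasted libraries. It rose by 0.30 on the log2 scale (limma adjusted p = 0.0368), a call that ended with no filter on low values (0.0659) and in 7 of the 8 fits that omit a single library, that without ad libitum replicate 4 excepted (0.0518 to 0.0913). Nfya, a subunit of the CCAAT factor NF-Y, was at 4.49, 4.92, 4.35 and 4.59 FPKM in fed and 2.79, 2.78, 2.67 and 3.09 in fasted libraries. Its groups lie well apart, with a log2 change of -0.55 (SE 0.0615, limma adjusted p = 2.47e-04). Its partners Nfyb and Nfyc differed by 0.08 and 0.11 and did not pass (limma adjusted p = 0.236 and 0.275).

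Ubiquitin itself was abundant. Of 6 precursor and E1 enzyme genes 0 were called, where 25.8% of all tested genes were called. The polyubiquitin gene Ubb was at 860.0 ± 109 FPKM in fed and 908 ± 79.9 in fasted cortex (SD, n = 4 each). The E1 enzyme gene Uba6 was at 3.51, 4.24, 3.98 and 5 and at 3.49, 2.94, 3.93 and 3.87 FPKM, with overlap, a log2 change of -0.18 (limma adjusted p = 0.189). Of 7 genes of p97, the ATPase that extracts ubiquitinated proteins for the proteasome, and its cofactors 1 rose. Over all tested genes 9.56% were called higher. After median-ratio scaling 2 were higher and 1 was lower, beside 14.2% and 15.6% of all genes. The block also gave 2 and 1, beside 14.3% and 22.1%. The cofactor gene Nsfl1c, at a log2 change of -0.17, was the lower one (limma adjusted p = 0.0597, 0.0311 scaled and 0.00883 with the block). Ufd1l, at 0.17, was higher in both fits (limma adjusted p = 0.0849, 0.0217 scaled and 0.0278 with the block). Nploc4, a cofactor that binds ubiquitin, was at 13.9, 13.7, 12.3 and 11.9 FPKM in fed and 15.2, 15.1, 14.4 and 14.5 in fasted libraries, a log2 change of 0.18 (limma adjusted p = 0.0410). That call ended in 8 alternative fits, 6 of them without 1 library each (0.0606 to 0.118). Vcp, which encodes p97, was at 68.7 ± 5.27 and 68.2 ± 3.59 FPKM (limma adjusted p = 0.935).

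Psmb8, Psmb9, Psme2b and 3 further members make up the 6 that stood too low to pass the filter. Psmc3ip, which matches the symbol pattern but encodes a meiotic recombination factor and no proteasome part, was at 0.987 ± 0.227 FPKM in fed and 0.640 ± 0.173 in fasted cortex (SD, n = 4 each). Psma8 stood at 0.0682 to 0.221 FPKM and Psmb11 at 0 to 0.0617, with Psmb11 listed at 0 in fasted replicates 1 and 4. With no filter on low values Psmc3ip, Psma8, Psmb11 and Psme2b were not called (limma adjusted p = 0.0903, 0.623, 0.368 and 0.934).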

How the data were processed

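RNA of 8 libraries was measured, 4 fed ad libitum and 4 fasted. The deposited table gives FPKM per gene symbol; reads were aligned with TopHat to mm10, per the submitters' processing notes. Not given in the sources used here: quantifier, annotation and strand setting. FPKM summed to 254085.8 to 640016.8 per library. Where a symbol had several rows (282 of them), the row of highest mean was kept.

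log2(FPKM + 1) was fitted with limma 3.58.1 in R 4.3.3 (trend, robust), with group as the only term, for genes that reached 1 FPKM in 4 or more libraries, and p-values were adjusted over all 12377. Values in every library are given for called members, up to 4 per group by p, for both catalytic sets, and otherwise for the 2 of smallest p; lists of related genes follow the same rule. Some genes that the rule chose are not reported here. The members and lists were chosen with earlier results of these data known. Replicate numbers are shared between groups in the labels, and same-numbered libraries deviated together (r = 0.574, 0.496, 0.382 and 0.523 for numbers 1 to 4). The numbers were therefore taken to pair libraries, which is an assumption. Libraries of different numbers were not compared, and sex-linked transcripts part odd from even numbers. In number 3 Xist was at 32.2 FPKM in the fed and 0.0385 in the fasted library. Alternatives covered scaling, pseudocount, filter, replicate block, a term for odd and even numbers, plain moderation and each library left out. Coordinates are from GENCODE on GRCm38, and depth was estimated from low values over single-transcript genes, so fragment numbers are approximate.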

Additional observations from a re-analysis of the deposited data

Results flagged for a closer look

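In 4 of 94 groups of 4 libraries, the highest library stood apart from the other 3 by more of the group's range than Dixon's critical value for 4 values; chance gives about 1 in 20. All 4 are fasted replicate 1. Psma2, of the alpha ring, was at 57.6 FPKM there, with a gap of 0.897 of the range. Psma3, also of the alpha ring, was at 35.5 FPKM, with a gap of 0.847. Psmd7, a lid subunit, was at 48.0 FPKM, with a gap of 0.893. Psme3, which encodes PA28 gamma, was at 39.6 FPKM, with a gap of 0.893. None of the 4 genes was called, with or without that library.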

How the results depend on the processing

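The number of members called moved with scaling and pairing. Median-ratio scaling gave 8 higher and 2 lower, and quantile normalization also gave 8 and 2. The replicate block gave 7 higher and 4 lower. Median-ratio scaling with the replicate block, chosen after seeing the data, gave 14 higher and 3 lower. A term for odd and even replicate numbers gave 1 higher and 2 lower. Leaving out 1 library gave 1 to 4 higher (4 without ad libitum replicate 2) and 0 to 3 lower (0 without ad libitum replicate 1, 2 or 3, and 3 without ad libitum replicate 4). Over all genes, 1183 were higher; quantile normalization gave 1792, and scaling with the replicate block 2390. The cause was not tested. The median log2 change of the assembly chaperones, -0.054, was -0.250 with a filter at 5 FPKM, which tests fewer of these genes, and -0.216 to 0.095 with 1 library left out. The log2 ratio of Psmb9 to Psmb6 differed by -1.392 to -0.870 with 1 library left out, with exact p from 0.0286 (without fasted replicate 1) to 0.0857 (when fed library 1, 3 or 4 or fasted library 2 was omitted). The 20 genes chosen by the naming rule had 337 values under the alternatives. Of these, 285 kept the side of the threshold, 22 lost the call and 30 gained it. The 285 include changes of sign where neither fit made a call, as for Psmb10 after median-ratio scaling. With a call in either fit, 0 changed sign. Depth limits Psmb8 and Psmb9, at about 4.1 to 39 fragments per library.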
